A study of Homo sapiens with 11 samples.

Results

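The regions described here are 967 broad H3K4me3 peaks of HK2 cells. They are the peaks of H3K4me3 replicate 1 that were at least 4000 bp wide, overlapped a peak of replicate 2 by 1 bp or more, and lay on chromosomes 1 to 22 or X. They were 967 of the 28550 peaks of replicate 1 on these chromosomes, and 5.74% of the 16833 peaks that overlapped replicate 2. Of the other overlapping peaks, 7376 were 2 to 4 kb wide and 8490 were under 2 kb. The members were thus chosen by their width in replicate 1, and width is given as a description only. A gene was assigned to a peak when a transcription start site (TSS) of a protein-coding gene lay inside it, and 1166 genes were assigned to the broad peaks.

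HK2 is an immortalised cell line derived from the proximal tubule of the human kidney. It was grown in DMEM-F12 with 10% serum and 0.05% DMSO, and the chromatin was fixed with 1% formaldehyde. The series holds 2 chromatin immunoprecipitation sequencing (ChIP-seq) samples for each of H3K4me3, H3K27ac and H3K27me3, with an input DNA sample, and 2 RNA-seq libraries, and HiChIP of H3K27ac that is not used here. There was a single line and a single condition, so no comparison between treatments was possible and no test was made. No label says that the replicates came from separate cultures, and the spread between them may be technical.

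H3K4me3, the trimethylation of lysine 4 of histone H3, is laid down at active promoters by the SET1 and MLL methyltransferases, mostly over CpG islands. Most promoters carry a short domain of the mark around the TSS. Unusually broad domains are known from many cell types, where they often cover genes of cell identity and growth control. H3K27ac marks active promoters and enhancers, whereas H3K27me3 is the mark of Polycomb repression.

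The labelled cell type was checked against the RNA. Of 18 proximal tubule markers, 6 had an FPKM (fragments scaled to transcript length and to the number of mapped fragments) of at least 1 in both libraries. The brush border enzymes GGT1 (64.1 and 58.1 FPKM in the 2 libraries) and DPP4 (28.7 and 32.5 FPKM) were among them, whereas the endocytic receptor LRP2 and the nuclear receptor HNF4A were listed at 0 in both. None of the 18 lay in a broad peak, 5 lay in peaks of 2 to 4 kb, 3 in peaks under 2 kb, and 10 had no peak shared by the replicates. The median of the list was 0.136 FPKM and its summed level was 118 and 117 FPKM. Of 9 loop of Henle and distal nephron markers, 5 endothelial markers found and 6 leukocyte markers, 0 reached 1 FPKM in both libraries, and of 7 podocyte markers 2 did, with a median of 0.311 FPKM. The fibroblast and mesenchymal list had 4 of 10 at that level, a median of 0.703 FPKM and a summed level of 3088 and 3521 FPKM, which came mostly from VIM and FN1. Both of these lay in broad peaks. In such bulk samples, few cells with a high level and many cells with a low level cannot be told apart.

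To show what DNA these peaks cover, the 150 bases before the main TSS are given for 7 genes. They were taken from the widest of the named members whose window overlapped no annotated exon. The main TSS is that of the transcript with the highest FPKM among those that start in the peak. The sequences are from GRCh37, 5′ to 3′ on the strand of the gene, and capitals mark matches on either strand to TATAAA (the TATA box), to CCAAT (the CCAAT box), to GGGCGG (the GC box), to TGACGTCA (the cAMP response element), to TGANTCA (an AP-1 element), to CACGTG (an E-box) or to CCGGAAG (an ETS core). Neighbouring or overlapping matches join into 1 run of capitals.
DCBLD2 (chr3:98620540-98620689, minus strand): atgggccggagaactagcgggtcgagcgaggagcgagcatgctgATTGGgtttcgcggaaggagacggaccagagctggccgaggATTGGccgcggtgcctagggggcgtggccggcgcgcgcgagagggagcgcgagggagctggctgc
CDKN1B (chr12:12870152-12870301, plus strand): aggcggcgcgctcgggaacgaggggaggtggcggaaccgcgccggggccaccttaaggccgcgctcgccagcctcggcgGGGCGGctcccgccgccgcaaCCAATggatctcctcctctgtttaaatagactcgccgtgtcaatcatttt
IRS2 (chr13:110438931-110439080, minus strand): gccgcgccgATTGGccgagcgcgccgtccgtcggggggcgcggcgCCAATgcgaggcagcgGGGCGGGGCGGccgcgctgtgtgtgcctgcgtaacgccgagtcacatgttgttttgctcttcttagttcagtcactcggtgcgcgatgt
HOXA3 (chr7:27159215-27159364, minus strand): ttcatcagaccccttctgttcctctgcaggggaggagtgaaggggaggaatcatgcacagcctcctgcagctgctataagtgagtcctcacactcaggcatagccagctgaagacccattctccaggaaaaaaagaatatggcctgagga
IGF2BP3 (chr7:23510111-23510260, minus strand): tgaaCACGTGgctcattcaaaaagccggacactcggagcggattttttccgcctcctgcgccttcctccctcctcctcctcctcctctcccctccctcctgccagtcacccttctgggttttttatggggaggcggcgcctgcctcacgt
BCL11A (chr2:60780794-60780943, minus strand): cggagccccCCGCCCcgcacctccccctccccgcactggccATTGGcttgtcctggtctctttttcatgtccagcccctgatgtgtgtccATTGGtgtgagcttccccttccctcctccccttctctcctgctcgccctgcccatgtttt
H3C12 (chr6:27858605-27858754, minus strand): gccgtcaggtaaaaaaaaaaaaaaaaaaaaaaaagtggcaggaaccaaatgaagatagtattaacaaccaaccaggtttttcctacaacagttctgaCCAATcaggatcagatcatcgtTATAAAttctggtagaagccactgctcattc

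These windows differed widely in base composition. The DCBLD2 window held 19 CpG and was 70.7% G+C, IRS2 held 24 and CDKN1B held 20. By contrast, HOXA3 held 0 CpG in the window of its main TSS, and none of the letters searched. The window of H3C12, a replication-dependent histone H3 gene, was 36% G+C, with a TATAAA that began 31 bases before the TSS and a CCAAT that began 53 bases before it. BCL11A carried 2 CCAAT and 1 GGGCGG.

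Over the 1162 genes of broad peaks with a canonical TSS, 65.4% held GGGCGG in the 150 bases upstream, against 66.9% in 2 to 4 kb peaks, 65.9% under 2 kb and 52.7% of all 19819 protein-coding promoters of that length. The share for genes of broad peaks was thus close to that for genes of narrower ones. The canonical TSS was not required to lie in the peak of its gene, so some of these windows may lie outside the peaks. CCAAT was in 31.2%, against 27.9% in 2 to 4 kb peaks and 26.4% of all. CACGTG was in 6.45%, against 7.09% and 5.77%, TGACGTCA in 3.18%, against 2.86% and 2.04%, and TGANTCA in 1.46%, against 1.66% and 2.83%. CCGGAAG was found for 7.57% of genes of broad peaks, for 15.3% of genes of 2 to 4 kb peaks and for 9.80% of all. A gene-strand TATAAA that ended 20 to 35 bases before the TSS was found for 58 genes of broad peaks, or 4.99%. The share was 1.55% for genes of 2 to 4 kb peaks, 8.22% for genes with no shared peak and 3.83% for all. Of the 58, 19 were histone genes, and without histone genes the share was 3.44% in broad peaks and 1.42% in 2 to 4 kb peaks. The others included GAPDH, ACTB, MT2A and CCN1. These are matches of letters and not measured binding sites.

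The broad peaks were less G+C rich than narrow ones over their whole width, with a median of 52.4% against 55.0% at 2 to 4 kb and 60.3% under 2 kb. CpG density was lower too, with a median of 45.4 per 1000 bases against 50.7 and 57.2, while the number per peak, which follows from width, had a median of 222 against 135 and 72. Around the main TSS of peaks with 1 protein-coding gene, in the 3000 bp on each side, 200-bp windows with at least 50% G+C and an observed over expected CpG ratio of at least 0.6 added up to a median of 1800 bp for broad peaks (quartiles 1200 and 2400, n = 702). The median was 1200 bp for peaks of 2 to 4 kb (n = 5223) and 1000 bp under 2 kb (n = 3978). This span around the TSS is of fixed length and does not depend on the width of the peak.

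The members had a median width of 4740 bp (quartiles 4285 and 5374 bp) and covered 4.94 Mb in all. At the threshold, the members just inside were a peak of 4001 bp on chromosome 17 with no protein-coding gene, ADRB1 at 4002 bp and SPTBN1 at 4004 bp, a gene that also starts in a wider member of 4784 bp. Just outside lay NUCKS1 and ZFP36L2 at 3999 bp and ATG16L2 at 3998 bp. The sets just inside and just outside did not separate by cover in replicate 2, which was 53.9%, 72.5% and 70.9% inside and 39.3%, 90.8% and 53.4% outside.

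Replicate 2 gave narrower peaks over the same regions. The study lists fewer aligned reads and a lower share of reads in peaks for this library, and their part in its narrower peaks was not tested. Its list was larger, with 73450 peaks, and its median width was 434 bp against 1197 bp in replicate 1. It held 94 peaks of at least 4000 bp, of which 77 overlapped a member, and the widest was 8992 bp. Over the members, the widest overlapping replicate 2 peak had a median of 2241 bp, against 1608.5 bp for peaks of 2 to 4 kb. Replicate 2 covered a median of 52.4% of the bases of a member (quartiles 40.2 and 66.8%), against 62.3% at 2 to 4 kb. In bases, this was 2514 bp against 1643 bp. There were 631 members over 1 replicate 2 peak, 268 over 2 and 68 over 3 or more. In 76 members, or 7.86%, a replicate 2 peak itself reached 4000 bp, against 9 of the 7376 peaks of 2 to 4 kb. By the widest overlapping peak, which was not cut at the edges of the member, the broad peaks were thus also wider in replicate 2 than their neighbours in size. The Spearman rho between width in replicate 1 and bases covered by replicate 2 was 0.80 over all 16833 overlapping peaks and 0.31 over the 967 members, whose range of width the rule cuts off. Bases covered by replicate 2 were counted inside the replicate 1 peak and cannot exceed its width. The rho values, and the 2514 bp against 1643 bp, are thus partly set by the width in replicate 1. All points come from the same pair of libraries.

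**Figure D1:**
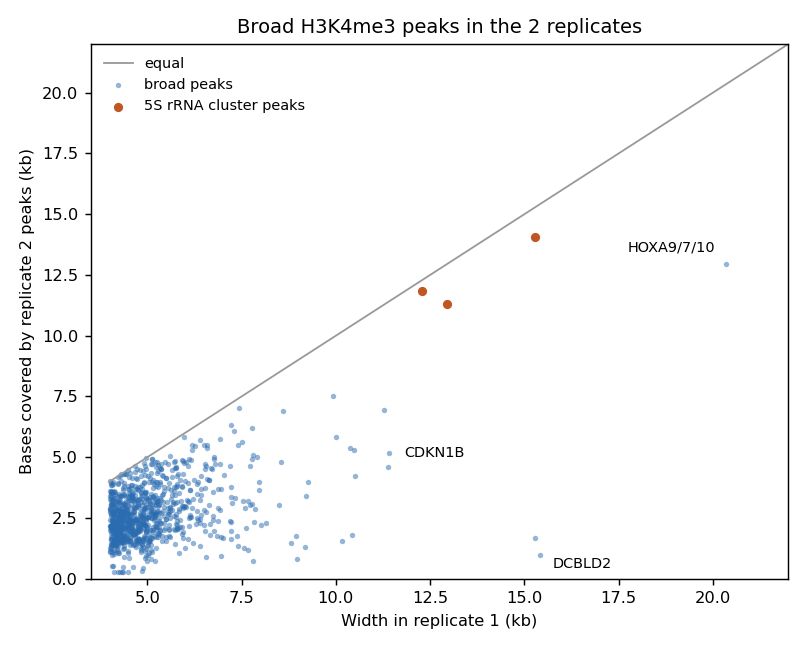
Each point is 1 of the 967 broad peaks, with its width in replicate 1 on the x axis and the bases covered by replicate 2 peaks on the y axis, both in kb. The grey line marks equal values. The 3 peaks over the 5S rRNA genes lie near the line, whereas DCBLD2, with 966 bp covered, lies far below it.

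Coverage by replicate 2 was complete or nearly so at a few members. KLF16, a zinc finger transcription factor, the peak of RPL28 and TMEM238, and PDGFA, a platelet-derived growth factor chain, were covered over 100% of their bases. ZFPM1, a cofactor of GATA factors, was covered over 99.7% and the AP-2 factor TFAP2A over 99.2%. At the other end, DCBLD2 was covered over 6.26%, the LINC-PINT region over 6.42%, the chromatin remodeller CHD2 over 6.52%, GRAMD2B over 6.64% and VMP1, an autophagy membrane protein, over 6.65%. Each of these 5 was nonetheless covered over 100% by H3K27ac replicate 1, and in replicate 2 over 94.6%, 95.6%, 44.8%, 59.7% and 98.2%. The peaks of CHD2, GRAMD2B and VMP1 held internal starts and did not reach the most upstream end of the gene. That of VMP1 (chr17:57915208-57920065) lay over the downstream end of the gene, which spans chr17:57784553-57919616.

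The widest member spanned 20334 bp at chr7:27194115-27214448, over the starts of HOXA7, HOXA9 and HOXA10, homeobox factors of the posterior HOXA cluster. Replicate 2 covered 63.7% of it in 7 peaks, H3K27ac covered 100% and 99.1% in its 2 replicates, and neither H3K27me3 list touched it. HOXA9 was at 153 and 131 FPKM, HOXA10 at 28.8 and 38.8 and HOXA7 at 20.6 and 17.6. HOXA3, 10513 bp wide at chr7:27154527-27165039, was likewise covered by H3K27ac over 100% and 99.6%, with 7.02 and 11.1 FPKM. In all, 13 of 39 HOX genes lay in broad peaks, and these had a median of 5.83 FPKM against 2.39 for all 39.

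Other wide members reached far into the gene body. DCBLD2, a neuropilin-like membrane protein, had a peak of 15420 bp (chr3:98607372-98622791) that ended 13167 bp downstream of the main TSS, and 342 and 361 FPKM. Here H3K4me3 replicate 2 covered a small stretch, 6.26% of bases, whereas H3K27ac replicate 2 covered 94.6%. The insulin receptor substrate IRS2 reached 8770 bp downstream in a peak of 11275 bp, of which replicate 2 covered 61.5% in a single peak of 6932 bp, with 21.2 and 20.3 FPKM. Wide peaks were thus not of the same shape in replicate 2, where IRS2 was broad and DCBLD2 was not.

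Also among the 12 widest were the peaks of the cell cycle inhibitor CDKN1B with APOLD1 (11420 bp), the helicase ZNFX1 (11379 bp), the AP-1 subunit FOSL2 (10494 bp) and the phospholipase PLCB4 (10428 bp). CDKN1B was at 21.0 and 19.4 FPKM and its neighbour APOLD1 at 1.36 and 1.76. ZNFX1 was at 15.3 and 17.4, FOSL2 at 55.0 and 56.1 and PLCB4 at 39.4 and 42.5 FPKM. ZNFX1 differed from the others in its marks, with H3K27ac over 51.0% and 41.2% of the peak. It also differed in direction, since 9306 bp lay upstream of its main TSS. Direction is given for the protein-coding gene only, and TSSs of noncoding genes in the same peak were not considered. Far upstream reach was also seen at the RNA-binding protein IGF2BP3 (6460 bp). At YWHAZ, a 14-3-3 protein, 6169 bp lay upstream of the main TSS and 228 bp downstream. That TSS was internal, and the peak also covered the most upstream end of YWHAZ. Most of the 6169 bp thus lay inside the annotated gene.

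Of the 6 widest members, 3 held no protein-coding gene. They stood side by side at chr1:228744117-228785178, with widths of 12296, 15278 and 12958 bp, over the 17 annotated 5S ribosomal RNA genes that start in them. Replicate 2 covered 96.1%, 92.0% and 87.2% of their bases, more than at any other member over 10000 bp wide, and the widest replicate 2 peak of all, 8992 bp, lay here. H3K27ac differed between its replicates, with 100%, 100% and 96.0% covered in replicate 1 and 27.9%, 16.8% and 28.4% in replicate 2. The 5S genes are near-identical copies in tandem, and by the methods of the study only uniquely mapped ChIP-seq reads were kept. The part of the repeat in these peaks was not tested.

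**Figure D2:**
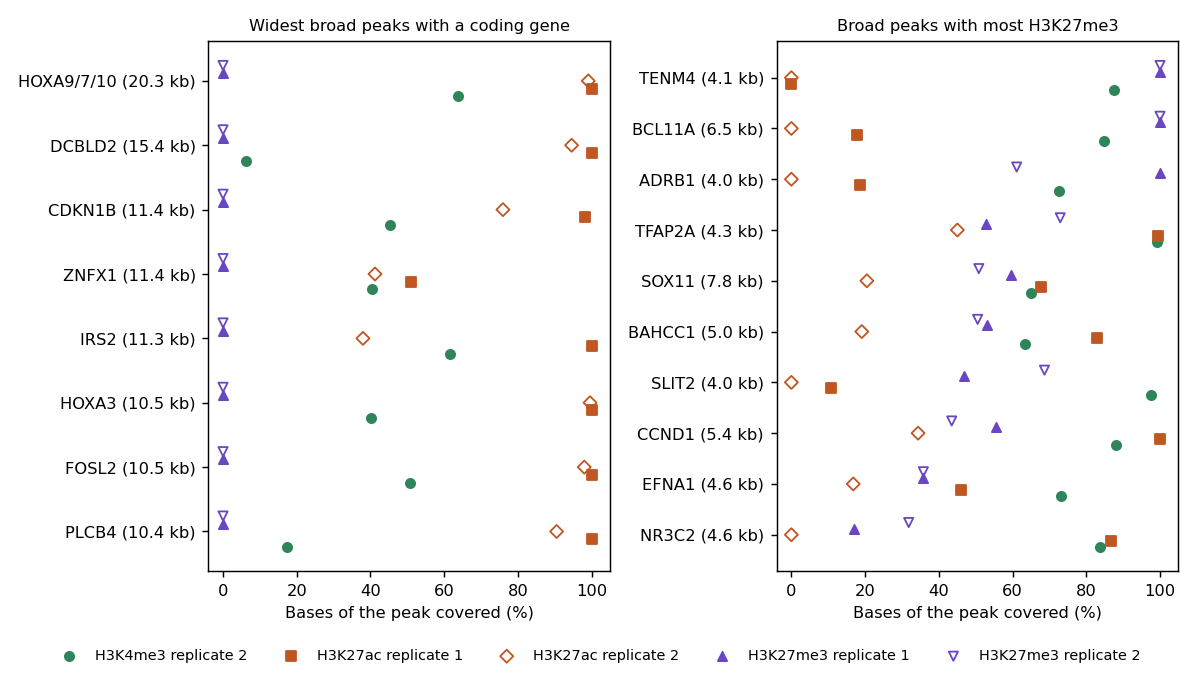
The percent of bases covered by each other peak list is shown on the x axis for 8 of the 12 widest broad peaks, each with a protein-coding gene (left), and the 10 broad peaks with a gene and most H3K27me3 (right), with filled symbols for H3K4me3 replicate 2 and for replicate 1 of the other marks. H3K27me3 is at 0 in the left panel, and in the right panel TENM4 has H3K27me3 over 100% and H3K27ac over 0% in both replicates.

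Nearly every broad peak held an annotated TSS of a coding gene. Of 967, 931 or 96.3% held a protein-coding TSS (95% Wilson interval 94.9 to 97.3, counting error only), against 92.4% of the 2 to 4 kb peaks and 76.0% of all overlapping peaks. A wide region has more room for a TSS, and these shares are not scaled to width. With the most upstream end of each gene only, the share of broad peaks was 82.0%. By any TSS, 710 broad peaks held 1 gene, 199 held 2 and 22 held 3 or more. Of the 199 pairs, 140 or 70.4% were head to head, close to the 71.9% of pairs in 2 to 4 kb peaks. The most genes in a peak was 4. One such peak held TNFRSF12A, the TWEAK receptor (204 and 189 FPKM), with HCFC1R1, THOC6 and the tight junction gene CLDN6 (0.0632 and 0.0967 FPKM). Another held RRS1, a ribosome assembly factor (18.2 and 17.2 FPKM), with ADHFE1 and 2 unnamed genes. The last held BOLA1 (3.93 and 4.10 FPKM) with the histone genes H2AC20, H2AC21 and H2BC21.

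Of the 36 members without a coding TSS, 27 held the TSS of a long noncoding RNA, 3 were the 5S peaks and 5 held no annotated TSS. The examples here were chosen after their values were seen. MALAT1, a nuclear noncoding RNA, had a peak of 8972 bp with H3K27ac over 100% and 93.7%, of which H3K4me3 replicate 2 covered 9.15%, and it was at 21.4 and 24.3 FPKM. NEAT1, the scaffold of paraspeckles, had 8502 bp, 35.8% covered, and 4.18 and 6.12 FPKM. MIRLET7BHG, host of let-7 microRNAs, had 6523 bp with 1.19 and 0.691 FPKM, and the DLEU1 and DLEU2 region 5761 bp, with DLEU2 at 2.25 and 2.33 FPKM. SNHG32, a small nucleolar RNA host, was higher, at 95.8 and 94.8 FPKM. Over all members, 42.0% held the TSS of a long noncoding RNA, against 28.7% of 2 to 4 kb peaks and 15.3% of those under 2 kb, shares that are not scaled to width.

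Broad peaks lay mostly downstream of the TSS, as did narrow ones. In 702 peaks with a single protein-coding gene, the peak covered a median of 1623 bp upstream and 3198.5 bp downstream of the main TSS. Noncoding TSSs, which may also lie in these peaks, were not considered. More bases lay downstream in 575 of the peaks, or 81.9%. This share was close in narrower peaks, at 82.7% for 2 to 4 kb, where the medians were 960 and 1613 bp, and 81.6% under 2 kb. In 26 genes, or 3.70%, the whole gene was shorter than the part of the peak downstream of the main TSS, against 0.938% at 2 to 4 kb.

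In replicate 2 the lopsided shape was kept. At 2000 bp downstream of the main TSS, 28.6% of the 702 TSSs had a replicate 2 H3K4me3 peak, against 13.0% at 2000 bp upstream. For peaks of 2 to 4 kb these were 6.03% and 2.68%. H3K27ac is a separate antibody and was not used by the rule. At 4000 bp downstream it was present in 38.3% (replicate 1) and 11.4% (replicate 2) of broad TSSs, against 7.98% and 2.16% of 2 to 4 kb TSSs. At 8000 bp downstream, beyond most of the H3K4me3 peaks, it was still at 19.5% and 5.70%, against 7.56% and 2.53%. Just upstream of the TSS, H3K27ac replicate 2 dipped. It was at 53.3% of broad TSSs at 100 bp upstream, against 73.8% at 500 bp upstream, 64.2% at the TSS and 83.8% at 500 bp downstream. In 2 to 4 kb peaks these were 40.7%, 46.01%, 52.7% and 63.7%. Replicate 1 was at 97.7% of broad TSSs at 100 bp upstream.

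**Figure D3:**
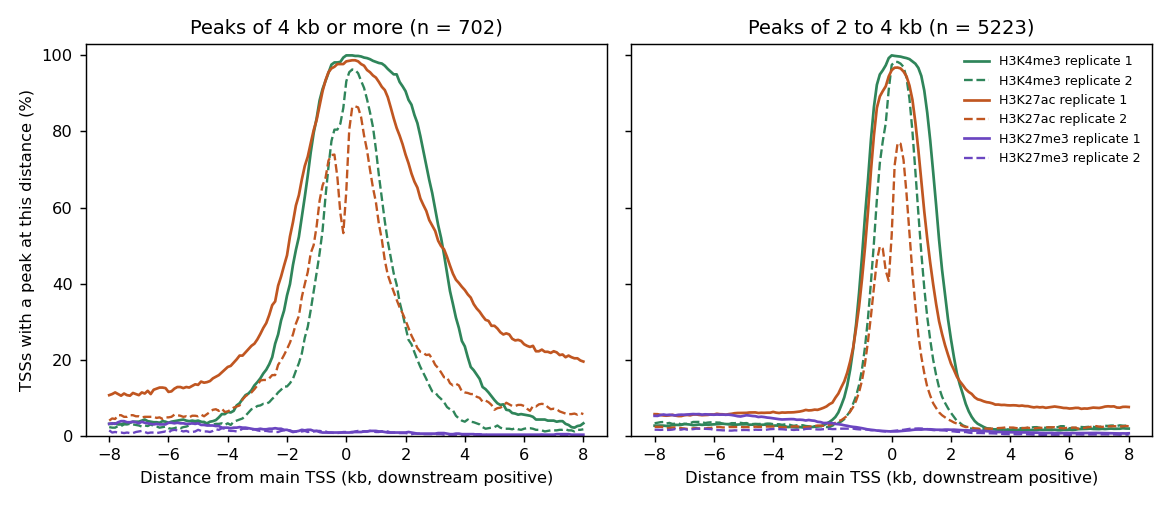
The percent of main TSSs with a peak of each list (y axis) is plotted against distance in kb from the TSS (x axis, downstream positive), for 702 peaks of 4 kb or more and 5223 peaks of 2 to 4 kb with 1 coding gene. Solid lines are replicate 1 and dashed lines replicate 2. H3K27ac stays higher downstream of broad peaks (38.3% against 7.98% at 4 kb in replicate 1), and its replicate 2 line dips just upstream of the TSS in both classes.

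H3K27ac accompanied the broad peaks almost everywhere. Of 967, 945 or 97.7% overlapped H3K27ac in both replicates, against 88.3% of the 2 to 4 kb peaks and 63.6% of all overlapping peaks. A wide region has more room for an overlap of 1 bp, so the covered share is given as well. The median share of a member covered was 94.1% in replicate 1 and 50.5% in replicate 2, against 82.0% and 39.9% at 2 to 4 kb. There were 298 members, or 30.8%, that lay wholly inside 1 H3K27ac peak of replicate 1, against 12.1% at 2 to 4 kb. H3K27ac domains of at least 10000 bp in replicate 1 met 119 members, or 12.3%, against 0.908% of 2 to 4 kb peaks. In replicate 1 the widest overlapping H3K27ac peak had a median of 4766 bp and a median ratio of 0.995 to the width of the member, whereas in replicate 2, for which the study also lists a lower share of reads in peaks, its median was 1868 bp. Only 3 members had no H3K27ac in either replicate, namely EPHA7, TENM4 and a region at chr2:90447280-90451360 without a coding gene, and each of these 3 overlapped H3K27me3.

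H3K27me3 peaks were rare over the members. They overlapped 21 members in both replicates, or 2.17% (95% Wilson interval 1.42 to 3.30). This share was close to the 2.40% of the 2 to 4 kb peaks and below the 10.0% of all overlapping peaks. The study lists a lower share of reads in peaks for H3K27me3 than for either other mark, and its part in these counts was not tested. In 10 of the 21 members the mark covered at least 25% of the bases in each replicate. Of the 21, 18 had a coding gene. Their 19 measured genes had a median of 1.66 FPKM, against 17.2 FPKM for the 1128 other measured genes of broad peaks. The level was 0.660 FPKM for the 144 genes of 2 to 4 kb peaks with H3K27me3 in both replicates, and 0.0985 FPKM for 790 genes under 2 kb.

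Some of these members had little or no H3K27ac. TENM4, a teneurin of neural wiring, and BCL11A, a zinc finger repressor known from fetal globin silencing, were covered by H3K27me3 over 100% in both replicates, and were at 0.355 and 0.186 FPKM and at 0.118 and 0.197 FPKM. H3K27ac was absent from TENM4 and covered 17.8% of BCL11A in replicate 1 and 0% in replicate 2. The beta-1 adrenergic receptor ADRB1 was covered over 100% and 61.1%, at 0.495 and 0.384 FPKM. The axon guidance ligand SLIT2 was covered over 46.8% and 68.7% and was at 2.63 and 2.64 FPKM. These 4 had H3K27ac over at most 18.7% of the peak.

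Other members overlapped both H3K27me3 and H3K27ac. The overlap of the 2 marks base by base was not computed, so they may lie on different parts of a peak. Whether both marks lay on the same chromatin or in different cells cannot be told apart in these data. CCND1, the cyclin D1 gene, had H3K27me3 over 55.4% and 43.5%, H3K27ac over 100% and 34.4%, and 16.9 and 16.4 FPKM. TFAP2A was covered by H3K27me3 over 52.7% and 72.9% and by H3K27ac over 99.5% and 45.0%, at 3.54 and 3.52 FPKM. The transcription factor SOX11 (7804 bp wide) had H3K27me3 over 59.4% and 50.8% with H3K27ac over 67.8% and 20.5%, at 2.55 and 2.26 FPKM. NR3C2, the mineralocorticoid receptor, had H3K27me3 over 17.0% and 31.8% and was at 1.23 and 1.35 FPKM. H3K27ac covered 86.8% of the NR3C2 peak in replicate 1 and 0% in replicate 2. BAHCC1 was at 1.37 and 0.996 FPKM and the ephrin ligand EFNA1 at 4.46 and 4.05 FPKM. PAX6, a master regulator of eye development that was named after its values were seen, had a peak of 9914 bp with H3K27me3 over 13.8% and 22.8%, and 7.45 and 7.32 FPKM.

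Genes of broad peaks were transcribed at higher levels than those of narrow peaks. Of the 1166 genes, 1147 matched the RNA files and 19 did not, among them SOD2. The median was 16.5 FPKM in library 1 and 16.7 FPKM in library 2, against 10.99 and 11.2 for peaks of 2 to 4 kb and 3.31 and 3.41 under 2 kb. Over the mean of the libraries, the median of broad genes was 16.9 FPKM (quartiles 6.65 and 40.7), and the median log2(FPKM + 1) was 0.97 above that of the 12313 genes of peaks under 4 kb. Against the 7761 genes of 2 to 4 kb peaks alone, the difference was 0.57. The 2 libraries differed far less than the classes, with a median fold of 1.08 between them over the 1073 broad genes of at least 1 FPKM in both. The ranges of single genes overlapped widely between classes.

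Against 2 to 4 kb genes, the shares were close at 1 FPKM and further apart at higher levels. At least 1 FPKM in both libraries was seen for 1073 broad genes, or 93.5%, against 92.0% of 2 to 4 kb genes, 65.5% under 2 kb and 58.9% of all protein-coding genes. At least 5 FPKM in both was seen for 79.5%, against 72.1% of 2 to 4 kb genes, 40.9% under 2 kb and 43.2% of all. At least 50 FPKM in both was seen for 222, or 19.4%, against 9.37%, 2.92% and 5.56%. The medians were also higher in the wider classes of members, in both libraries. The median of library 1 was 15.8 FPKM for 4 to 5 kb (n = 715), 17.3 for 5 to 6 kb (n = 273), 19.7 for 6 to 8 kb (n = 133) and 25.9 for 8 kb or more (n = 26), and library 2 gave 16.0, 18.7, 20.9 and 25.8. Genes of 1 peak share it, and the last class is small. Broad genes were also somewhat longer, with a median of 42274 bp against 38718 bp at 2 to 4 kb.

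**Figure D4:**
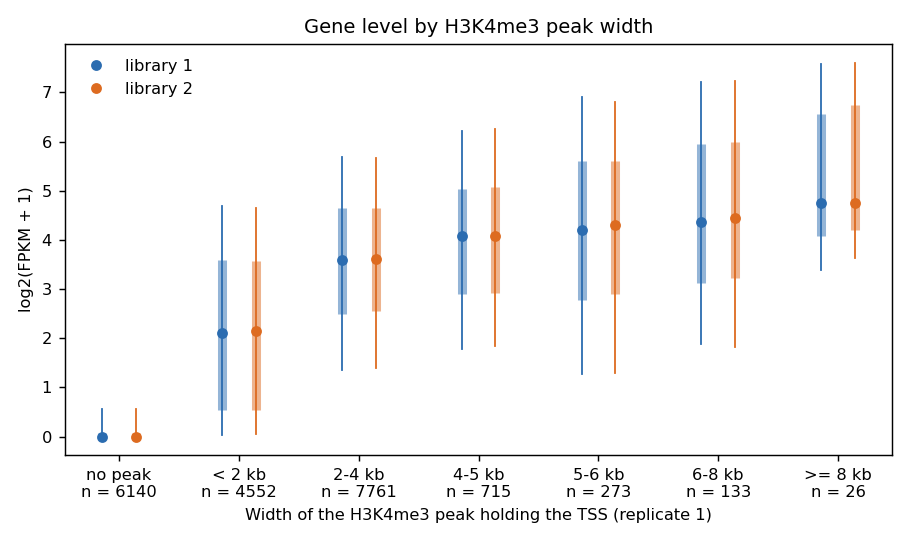
Points are the median log2(FPKM + 1) of protein-coding genes in each of the 2 RNA libraries (y axis), by the width of the H3K4me3 peak that holds the TSS (x axis). Thick bars span the quartiles and thin lines the 10th to 90th percentiles over genes. The medians of both libraries climb from 0 for genes with no shared peak to the widest class of 8 kb or more, while the bars of neighbouring classes overlap from under 2 kb upward.

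The highest genes of broad peaks were housekeeping and structural genes. GAPDH, the glycolytic dehydrogenase, had 5360 and 5362 FPKM and a peak of 6115 bp. The ferritin light chain FTL was at 3878 and 3780 FPKM (5790 bp) and fibronectin, FN1, at 2333 and 2343 FPKM (5602 bp). Then came the elongation factor EEF1A1 (2287 and 2378 FPKM), the enolase ENO1 (1947 and 1867), the actin ACTB (1872 and 1866), the metallothionein MT2A (1700 and 1684), the ribosomal proteins RPL12 (1644 and 1511) and RPS18 (1501 and 1532), and the actin ACTG1 (1155 and 1098). Their widths ran from 4023 bp at RPL12 to 7226 bp at ACTG1, so none was among the 12 widest. All 10 were covered by H3K27ac replicate 1 over at least 85.2% of the peak.

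At the low end, 8 genes were listed at 0 in both libraries, namely ANKUB1, SPESP1, HJV, ZFP91-CNTF, the histone genes H3C7 and H3C12 and 2 unnamed genes. The other 2 of the 10 lowest, also unnamed, were at most 0.0338 FPKM. HJV, the hemojuvelin of iron control, was the only one of the 10 in a peak with a single gene. In all, 74 broad genes were under 1 FPKM in a library. Of these, 57 shared their peak with another coding gene, 39 with one of at least 1 FPKM in both libraries, and 7 lay in peaks with H3K27me3 in both replicates. Of the 929 members with a measured coding gene, 902 or 97.1% held at least 1 gene of at least 1 FPKM in both libraries.

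Histone genes were many among the low ones, a group described after its values were seen. Of 68 replication-dependent histone genes, 27 lay in 13 broad peaks of 4038 to 6404 bp. The 25 measured had a median of 0.253 FPKM, from 0 to 17.2, and 3 reached 1 FPKM in both libraries. They made up 22 of the 74 genes under 1 FPKM. These genes are short, with a median of 511 bp, and are known to make messages without a poly(A) tail. The libraries were made from rRNA-depleted total RNA, and the part of library preparation or of read assignment in these low values was not tested.

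The gene lists are read against 5.80%, the share of all 20098 protein-coding genes with a TSS in a broad peak. They were chosen with earlier results of these data known, and their counts are descriptions. Immediate early and AP-1 genes, which respond within minutes to growth factors and stress, had the largest share, with 14 of 27 in broad peaks and 11 in peaks of 2 to 4 kb. Their median was 24.3 FPKM, and 31.5 FPKM for the 14. ZFP36L1, an mRNA decay factor, had a peak of 8594 bp and 112 and 113 FPKM, and JUN a peak of 5788 bp and 89.7 and 85.1 FPKM. The phosphatase gene DUSP1 was at 49.3 and 48.8 FPKM, JUNB at 48.5 and 45.4, GADD45A at 46.1 and 46.4, GADD45B at 42.3 and 25.9, KLF6 at 29.7 and 28.1 and BHLHE40, of the circadian and hypoxia response, at 28.0 and 27.2 (7856 bp wide).

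MYC and IER2, in peaks of 6584 and 4354 bp, differed strongly between the libraries. MYC, the growth-promoting transcription factor, was at 5.75 and 50.4 FPKM, and IER2 at 19.6 and 1.17 FPKM. Most of the MYC difference came from 1 transcript, ENST00000613283.2, at 1.27 and 37.6 FPKM. Similarly, VIM was at 709 and 1133 FPKM, of which transcript ENST00000544301.6 held 580 and 1.24 and ENST00000224237.9 held 7.05 and 861. ENAH, an actin regulator, was at 37.3 and 121 FPKM. Levels of these 4 are thus uncertain, and they were chosen after their values were seen. Of the 1073 broad genes of at least 1 FPKM in both libraries, 53 or 4.94% were over 1.5-fold apart, close to the 5.00% of 2 to 4 kb genes. The cause was not tested.

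Hippo and transforming growth factor beta signalling had 15 of 31 genes in broad peaks. The coactivator genes YAP1 (27.1 and 29.9 FPKM) and WWTR1 (71.4 and 79.5) and their target CCN1 (814 and 790 FPKM, 8546 bp) were among them. On the other arm stood the ligand TGFB2 (27.9 and 27.9 FPKM, 8156 bp), the transducer SMAD3 (37.8 and 37.0), the repressor TGIF1 (60.5 and 66.4, 7903 bp) and the targets ID1 (50.7 and 50.2) and ID3 (21.9 and 21.15). AMOTL2, which binds YAP, was at 67.6 and 53.6 and AJUBA at 33.0 and 35.3 FPKM. The inhibitory SMAD7, named after its values were seen, had the widest peak of the list (10015 bp) and a lower level, 12.6 and 13.1 FPKM.

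Actin cytoskeleton and adhesion genes had 15 of 38 in broad peaks, with a median of 154 FPKM. Besides the actins, FLNA, an actin crosslinker, was at 739 and 701 FPKM, the tropomyosin TPM1 at 601 and 649, the integrins ITGB1 at 340 and 308 and ITGA3 at 148 and 141, the actinin ACTN1 at 169 and 163, MYL12A at 172 and 171, CNN3 at 155 and 153 and the laminin LAMB1 at 124 and 141 FPKM. These 15 genes cover cell shape and contact with the matrix. By contrast, epithelial junction and keratin genes had 2 of 32 in broad peaks and 15 in peaks of 2 to 4 kb. Both were cadherins, CDH6 (112 and 120 FPKM, 6396 bp), known from the embryonic and tubular kidney, and CDH2, N-cadherin (59.3 and 59.7 FPKM, 5369 bp). Of 16 mesenchymal transition factors, 4 lay in broad peaks, namely VIM, FN1, SNAI1 (13.0 and 12.05 FPKM) and ZEB2 (4.06 and 3.78 FPKM).

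Transcription factors of the nephron lineage had 7 of 25 in broad peaks, whereas 10 of the 25 had no shared peak. PAX8, required for kidney formation, was at 100 and 104 FPKM in a peak of 4765 bp. LHX1, of the early nephric duct, was at 61.9 and 60.1 FPKM. Lower levels were seen for the others named, with HOXB7 at 11.002 and 11.2, HOXD11 at 5.84 and 4.65, FOXC1 at 4.50 and 4.41 and TFAP2A at 3.54 and 3.52 FPKM. PAX8 and LHX1 thus stood well above the median of the list, 0.386 FPKM.

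Of the p53, RB and cell cycle list, 9 of 27 lay in broad peaks. Besides CDKN1B and CCND1, these included the tumour suppressor CDKN2A (114 and 112 FPKM, 5829 bp), the kinase CDK6 (13.9 and 15.7), the cyclin CCND3 (30.8 and 32.3), E2F3 (6.75 and 7.18), SESN1 (5.79 and 6.10) and GADD45A. The EGF and MET list had 6 of 19, with the ligands EREG (30.7 and 34.5 FPKM) and NRG1 (24.2 and 19.85) and the feedback inhibitors ERRFI1 (28.7 and 29.2), SPRY2 (9.37 and 9.37, 6244 bp), SPRED1 (3.68 and 3.81) and SPRY1 (2.55 and 1.38). The receptor genes of that list lay outside the broad peaks.

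NRF2 and metal response genes had 6 of 20 in broad peaks. The regulator NFE2L2 itself was at 6.13 and 7.22 FPKM, whereas MT2A, the thioredoxin TXN (235 and 229), the autophagy receptor SQSTM1 (233 and 166) and the reductase TXNRD1 (146 and 162) were high, and the cystine transporter SLC7A11 was at 2.31 and 2.82 FPKM. The NF-kB, cytokine and chemokine list had 5 of 28, with the inhibitors NFKBIZ (83.7 and 109 FPKM, 10156 bp) and NFKBIA (29.5 and 24.0), NFKB1 (16.1 and 16.3), TNFRSF12A and SOD2. Of the H3K4 methylation and demethylation genes, 4 of 18 lay in broad peaks, and all 4 encode methyltransferases, SETD1B (10.8 and 11.001 FPKM, 6796 bp), KMT2D (14.2 and 14.1), KMT2A (7.92 and 8.93) and KMT2C (4.95 and 6.35).

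Ribosomal protein genes lay mostly in peaks of 2 to 4 kb. Of 79 cytosolic ribosomal protein genes, each at 1 FPKM or more in both libraries and with a median of 520 FPKM, 7 or 8.86% lay in broad peaks, 63 in peaks of 2 to 4 kb and 9 under 2 kb. The 7 had a median of 748 FPKM and included RPS12 (1063 and 1066 FPKM), RPL10 (610 and 887) and RPL7 (596 and 592). Ribosomal protein genes have many near-identical pseudogenes, which could take or lend reads.

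The broad peaks were spread unevenly over the chromosomes. Chromosome 4 had the largest share, with 60 of its 679 overlapping peaks or 8.84% (95% Wilson interval 6.93 to 11.2), followed by chromosome 6 with 8.49% and chromosome 10 with 8.20%. The smallest share was on chromosome 19, with 21 of 1251 or 1.68% (1.10 to 2.55), then chromosome 22 with 2.43% and chromosome 16 with 2.59%. The interval of chromosome 19 did not overlap that of any chromosome with a share above 5%. The median width of all overlapping peaks on chromosome 19 was also the lowest, at 1666 bp.

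**Figure D5:**
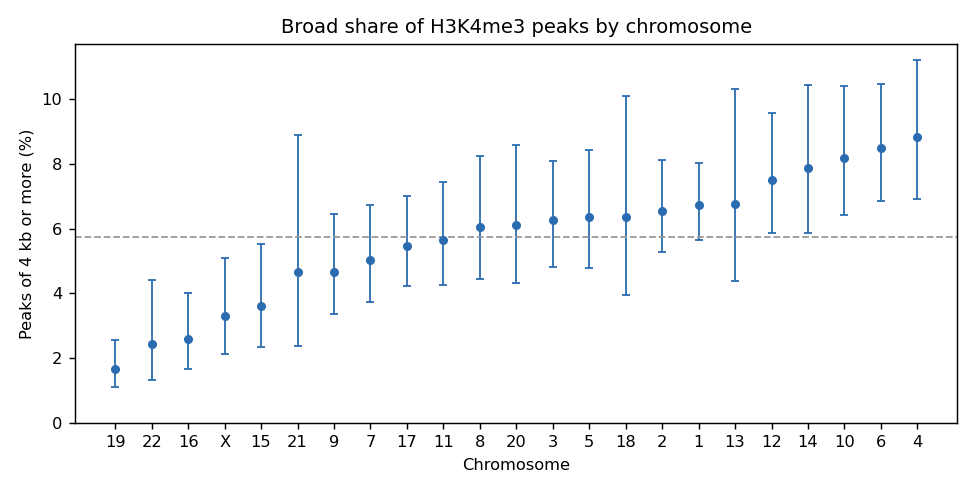
The percent of overlapping H3K4me3 peaks that were 4 kb or wider (y axis) is given for each chromosome (x axis, ordered by value), with 95% Wilson intervals as bars and the share over all chromosomes, 5.74%, as a dashed line. Chromosome 19, at 1.68%, lies lowest and chromosome 4, at 8.84%, highest.

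Finally, 22 peaks of replicate 1 of at least 4000 bp did not overlap replicate 2 and were left out by the rule. The widest was 7751 bp, 12 held a protein-coding TSS and 21 overlapped H3K27ac in both replicates.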

How the data were processed

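ChIP-seq peaks of HK2 cells were deposited as intervals on hg19 without scores or reads, so the files themselves give no depth. The read numbers that the study lists for each library were not used here. By the study's methods, reads were aligned with Bowtie2 at default settings, uniquely mapped reads were kept and MACS2 called peaks in each replicate. The MACS2 version, mode and threshold are not given in the sources used here. RNA was rRNA-depleted total RNA aligned with HISAT2, and the submitters' notes also name cutadapt. FPKM and TPM values were deposited by the authors as StringTie 1.3.3 transcript tables. FPKM was summed here over the transcripts of each gene and joined to GENCODE v44lift37 by Ensembl identifier. The study names hg19 for the RNA reads, but the transcript tables carry coordinates of a later genome build, which were not used. Genes and main TSSs were thus matched by identifier across annotation releases and placed by GENCODE v44lift37. A gene with a TSS in several peaks was counted in the widest. Overlaps, medians and 95% Wilson intervals, which cover counting error only, were computed in Python 3.11.15 with numpy 2.4.6, pandas 2.3.3, scipy 1.17.1 and pysam 0.24.0, and plotted with matplotlib 3.10.9. The overlap code was checked on simulated data. Levels were compared as log2(FPKM + 1), with a pseudocount of 1 and no filter on low values. No test was made, since there was 1 condition and genes are not replicates.

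The members and the gene lists were chosen with earlier results of these data known. Named genes are those of the 12 widest members, the 10 highest and 10 lowest in FPKM, those of the 10 members with most H3K27me3, of the 3 peaks on each side of 4000 bp, of the 3 members with most genes, of the 5 most and 5 least covered by replicate 2, of the 3 reaching farthest on each side of the TSS, and up to 10 of each list by FPKM. Other widths, overlaps, TSS choices, pseudocounts and single replicates were tried as alternatives. The input DNA and HiChIP samples were not used here. A few genes and sequences that the rule names are not reported here.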

Additional observations from a re-analysis of the deposited data

Results flagged for a closer look

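Unplaced and random contigs, which the choice of chromosomes left out, held 515 H3K4me3 peaks of replicate 1 on 36 contigs. Of these, 4 were at least 4000 bp wide and overlapped replicate 2, and the widest was 6046 bp. They were noted as signal in data outside the regions described, and the input sample gave no peak list to set them against.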

How the results depend on the processing

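No paired analysis was possible because there was 1 condition and no result came from a test. Of 49 values recomputed, 33 moved and 16 did not. A value counted as moved when it left a tolerance set for each result, such as the spread between the libraries. Small shifts thus also count, such as that from 3198.5 to 3202.5 bp in the median downstream reach. Only the difference in median log2(FPKM + 1) could change direction, and it kept its sign. For the values that moved with a setting that does not itself change the regions or genes counted, the cause was not tested. The number of broad peaks was 2959 at a width of at least 3000 bp, 363 at 5000 bp and 548 with at least 50% of bases covered by replicate 2, and ran from 357 to 989 when 1 replicate alone set it, the lowest with joined replicate 2 peaks setting the width. The share with a protein-coding TSS was 82.0% with the most upstream end of the gene only and 94.6% at 3000 bp. H3K27ac in each replicate over at least 50% of bases was found in 51.1%, and leaving out 1 replicate gave 97.7 to 99.7%. H3K27me3 over at least 25% was found in 1.03%. The median level was 46.7 in TPM, 17.1 FPKM for genes of at least 0.1, 15.3 with the most upstream end, 14.1 at 3000 bp, 18.7 at 5000 bp and 16.5 to 16.7 in 1 library alone. The difference in median log2(FPKM + 1) was 1.04 with a pseudocount of 0.1, 0.84 for genes of at least 0.1, 0.57 against 2 to 4 kb peaks, 1.02 in TPM and 0.95 to 0.96 in 1 library. At 5 FPKM, 79.5% of genes passed. The median downstream reach was 3442.5 bp from the most upstream end, 2759 bp from the TSS nearest the midpoint and 3202.5 bp when either library alone chose the TSS, and the upstream reach 1351.5, 2128 and 1614 to 1616 bp. The last choice was added after seeing the data, as were leaving out histone genes (17.2 FPKM), keeping members with 1 gene (19.7 FPKM) and leaving out the 5S peaks (964 peaks, 96.6% with a TSS).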
